A study of Caenorhabditis elegans with 15 samples.

Results

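*eff-1* encodes EFF-1, the membrane fusogen that joins most epidermal cells of *Caenorhabditis elegans* into multinucleate syncytia, the largest of which is hyp7. The P37Stop allele places stop codons early in the coding sequence, so that no functional EFF-1 should be made and embryonic epidermal fusion is blocked. Transcriptomes of P37Stop larvae were compared here with those of the wild type (WT) grown beside them, over all genes. The comparison holds 6 of the 15 libraries of the series, 3 of P37Stop and 3 of WT, chosen by their column names. All 6 carry rep2 in their titles, and batch 2 is a name used only here. This WT group is called WT batch 2, because the other 9 libraries, of another experiment, include a WT group of their own, WT batch 1.

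P37Stop was made by CRISPR in animals that carried kuIs46 (*ajm-1::GFP* and *unc-119(+)*) and bqSi640 (an epidermal *dpy-7* promoter driving mCherry or GFP fused to *his-58*). The WT animals are described as N2. All animals were first-stage (L1) larvae, kept at 22°C and arrested without food in M9 buffer after bleaching of gravid adults. The study inspected the suspensions so that no viable unhatched embryos remained, and does not mention dead ones. Each library was made from whole animals of a separate plate. In RNA of whole animals, a change in the number of cells of a type and a change in RNA per cell cannot be told apart.

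During normal development the embryonic epidermis first secretes a transient precuticle, or sheath, and then the collagen cuticle with which the larva hatches. A starved L1 larva stops its postembryonic cell divisions and lives on embryonic reserves, and its germline consists of the primordial germ cells. Transcripts loaded into the oocyte, and the first transcripts the embryo makes itself, normally decline before hatching. The lists of genes used below follow these programs. Counts of differentially expressed genes (DEGs) are to be read beside the shares among all genes tested, 12.7% upregulated and 5.9% downregulated in P37Stop.

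The libraries held 37630490 to 44809076 counts in P37Stop and 40432433 to 47820215 counts in WT batch 2. Levels are CPM, counts scaled to library size after TMM normalization. On the first principal component of log2 CPM, which held 54.2% of the variance, the P37Stop libraries stood apart from the WT batch 2 libraries. Euclidean distances were 81.7 to 90.5 among P37Stop libraries and 86.6 to 95.1 among WT batch 2 libraries, below the 118 to 143 between groups. The 100 most abundant genes of each library took 22.2 to 24.9% of its counts in P37Stop and 27.2 to 29.2% in WT batch 2.

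Of 15780 genes tested with edgeR's quasi-likelihood test, 2000 (12.7%) were upregulated and 931 (5.9%) downregulated in P37Stop. The limits were 0.05 for the adjusted p and 0.5 in either direction for the log2 fold change. DEGs were therefore 18.6% of the genes tested, and 68.2% of them were upregulated. When total counts replaced TMM, the middle of the fold changes, their median on the log2 scale, moved by 0.217, and 3155 genes were upregulated and 362 downregulated (89.7% upregulated). Downregulated counts of lists are therefore also given with total counts. The groups did not overlap for 43.3% of the genes tested, so that non-overlap alone was common.

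The targeted gene was measured first. *eff-1* (WBGene00001159; chromosome II, 8346684 to 8350563, WBcel235, plus strand) was at 16.23, 19.3 and 18.02 CPM in P37Stop, against 22.4, 27.3 and 27.2 CPM in WT batch 2, so that the groups did not overlap. Its level was lower in P37Stop (log2 fold change -0.52, SE 0.12, edgeR adjusted p = 0.0104). A call at this size depended on the scaling, since the log2 fold change was -0.31 with total counts (adjusted p = 0.113 in the same test). Without P37Stop replicate 1, or without WT batch 2 replicate 2 or 3, the change was smaller than 0.5 in size (log2 fold change -0.46, -0.48 and -0.48). *aff-1*, which encodes the other known fusogen of the worm, was at 4.52, 3.72 and 4.74 CPM in P37Stop, against 2.59, 3.95 and 3.85 CPM in WT batch 2 and did not pass (log2 fold change 0.32, edgeR adjusted p = 0.4).

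Genes carried by the transgenes were measured as a check of the labels. *unc-119* was at 1091, 1040.3 and 954 CPM in P37Stop, against 759, 852 and 796 CPM in WT batch 2 (log2 fold change 0.36, edgeR adjusted p = 0.0182), which did not reach the fold limit. On a scale common to all 15 libraries, its mean was 1048 CPM in P37Stop and 850.1 CPM in WT batch 2, beside 27.2 CPM in WT batch 1. *ajm-1* had 2527 CPM in P37Stop and 2122 CPM in WT batch 2 on that scale, beside 728 CPM in WT batch 1. The libraries called WT batch 2 thus held the high *unc-119* and *ajm-1* levels that kuIs46 would give, which WT batch 1 lacked. *his-58*, the gene fused in bqSi640, differed between the groups, at 15.8 CPM in P37Stop and 4.09 CPM in WT batch 2 on that scale, beside 0.988 CPM in WT batch 1. Its copy *his-66* had 14.5, 4.68 and 1.52 CPM in the same order. The part of the transgenes in any other difference was not tested, and with WT batch 1 as the control, 1325 DEGs were again called upregulated and 370 again downregulated.

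With TMM, direction depended on abundance. Among the 177 genes with a mean of 1000 CPM or more in the higher group, 56 (31.6%) were downregulated in P37Stop and 1 was upregulated. Among the 4894 genes at 1 to 10 CPM, 962 (19.7%) were upregulated and 136 (2.78%) downregulated. The split by abundance was not made with total counts. There the downregulated DEGs were 362 in place of 931, with 0 in place of 14 ribosomal protein genes and 2 in place of 18 respiratory chain genes. The abundant genes that fell included ribosomal proteins, ATP synthase subunits, cuticle collagens and intestinal proteases. *eef-1A.1*, translation elongation factor 1A, was at 10774, 11762 and 9069 CPM in P37Stop, against 16443, 13564 and 15057 CPM in WT batch 2 (log2 fold change -0.51, SE 0.13, edgeR adjusted p = 0.0153). Of 38 translation factor genes tested, 3 (7.89%) were downregulated and 1 upregulated, with a median of -0.14. With total counts 0 were downregulated and 3 upregulated. *ant-1.1*, the mitochondrial ADP/ATP carrier, was at 7297, 7341 and 6671 CPM in P37Stop, against 11210.0, 9903 and 10553 CPM in WT batch 2 (log2 fold change -0.57, SE 0.11, edgeR adjusted p = 0.00312). The 1 upregulated gene at 1000 CPM or more, *C30E1.9*, was at 1215, 1454 and 2193 CPM in P37Stop, against 669, 1129 and 820.2 CPM in WT batch 2 (log2 fold change 0.89, SE 0.22, edgeR adjusted p = 0.0129). Its lowest P37Stop library was close to its highest WT batch 2 library.

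**Figure D1:**
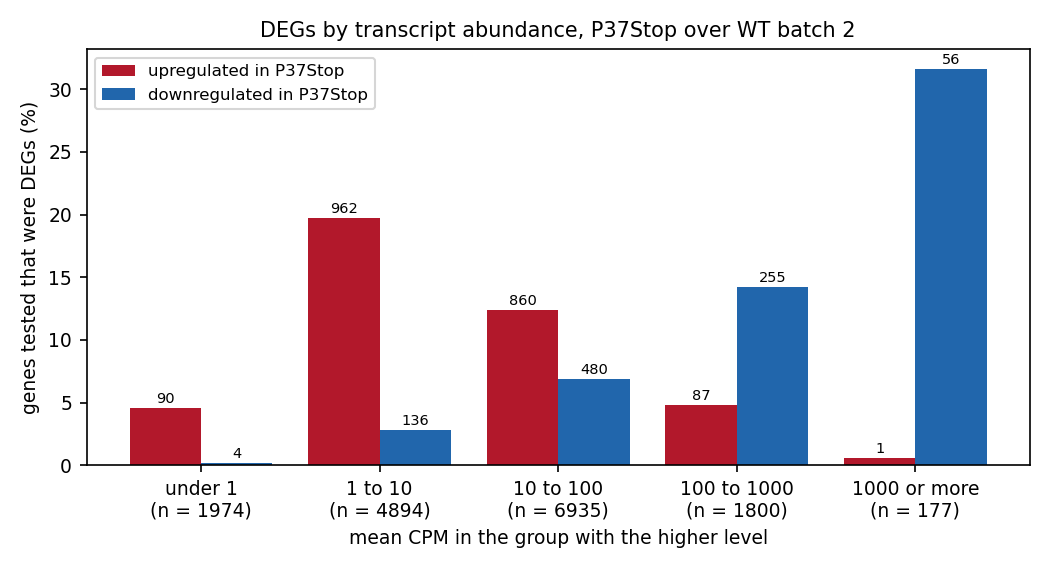
Percent of genes tested that were upregulated (red) or downregulated (blue) DEGs in P37Stop relative to WT batch 2, by mean CPM in the group with the higher level; numbers over the bars are counts of genes. With TMM scaling, the only one shown, upregulated genes peak at 1 to 10 CPM (962 of 4894) and downregulated genes at 1000 CPM or more (56 of 177).

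Gene families with a shared symbol were scanned by one rule. Of 157 families with at least 10 genes tested, 19 had an upregulated share at least 2 times that of all genes, and 29 had such a downregulated share. The largest upregulated share was in *fbxb*. *fbxb* genes encode F-box proteins, which as a class recruit substrates to SCF ubiquitin ligases. Of 92 *fbxb* genes tested, 70 were upregulated and 0 downregulated, with a median log2 fold change of 2.70. The median was 2.62 with the 3 members at 0 in every WT batch 2 library set to a bound from 3 counts per library. Those 3 members passed the count filter by their P37Stop counts alone, as other rare members may have done. Members rare in both groups were not tested. The share and the median therefore depend in part on the filter, as they do for other families of rare transcripts. Summed over the family, the level was at least 200.5 CPM in each P37Stop library and at most 50.6 CPM in each WT batch 2 library.

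Single *fbxb* transcripts were rare, with a median of the members' means of 1.92 CPM in P37Stop and 0.281 CPM in WT batch 2. The most abundant of the upregulated members, *fbxb-66*, was at 12.5, 11.02 and 8.82 CPM in P37Stop, against 1.49, 0.849 and 1.202 CPM in WT batch 2 (log2 fold change 3.19, SE 0.26, edgeR adjusted p = 2.57e-05). *fbxb-41* was at 5.82, 5.01 and 8.04 CPM in P37Stop, against 0.537, 0.413 and 0.267 CPM in WT batch 2 (log2 fold change 3.94, SE 0.36, edgeR adjusted p = 3.98e-05). The smallest change among the called members was in *fbxb-88*, at 4.20, 4.67 and 4.12 CPM in P37Stop, against 1.05, 2.75 and 1.90 CPM in WT batch 2 (log2 fold change 1.19, SE 0.35, edgeR adjusted p = 0.027). In all of these genes the groups did not overlap. *fbxc* genes, another F-box group, were upregulated in 19 of 39, with 0 downregulated and a median of 1.21. *fbxc-40* was at 16.7, 14.3 and 10.8 CPM in P37Stop, against 4.39, 5.302 and 6.70 CPM in WT batch 2 (log2 fold change 1.3496, SE 0.21, edgeR adjusted p = 0.00111). The largest F-box family did not share this, since 12 of 158 *fbxa* genes (7.59%) were upregulated and 9 downregulated, with a median log2 fold change of 0.08.

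SKP1-related (*skr*) proteins link F-box proteins to cullin, and 11 of 19 *skr* genes were upregulated with 0 downregulated. *skr-15* was at 5.75, 14.9 and 14.02 CPM in P37Stop, against 2.33, 1.19 and 1.09 CPM in WT batch 2 (log2 fold change 2.90, SE 0.4, edgeR adjusted p = 0.000453). *skr-7* was at 17.6, 41.11 and 41.5 CPM in P37Stop, against 7.72, 4.20 and 2.70 CPM in WT batch 2 (log2 fold change 2.77, SE 0.38, edgeR adjusted p = 0.000495). *skr-8* was at 15.2, 36.8 and 31.7 CPM in P37Stop, against 6.86, 3.81 and 1.47 CPM in WT batch 2 (log2 fold change 2.78, SE 0.45, edgeR adjusted p = 0.0013). In these genes P37Stop replicate 1 was the lowest of its group and WT batch 2 replicate 1 the highest of its own. *skr-21* had the opposite order in P37Stop, at 66.1, 45.1 and 38.3 CPM in P37Stop, against 12.7, 16.9 and 16.478 CPM in WT batch 2 (log2 fold change 1.698, SE 0.19, edgeR adjusted p = 0.000135). The general SKP1 gene *skr-1* was at 456, 429.9 and 440.3 CPM in P37Stop, against 389, 436 and 404 CPM in WT batch 2 and did not pass (log2 fold change 0.11, edgeR adjusted p = 0.384). Neither did *cul-1*, the cullin of the complex, at 63.6, 73.2 and 86.0 CPM in P37Stop, against 81.1, 64.7 and 73.3 CPM in WT batch 2 (log2 fold change 0.02, edgeR adjusted p = 0.904).

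The *sdz* genes were named as zygotic genes dependent on the maternal factor SKN-1. Of 30 tested, 19 were upregulated and 1 downregulated, with a median log2 fold change of 2.42. *sdz-28* was at 6.64, 10.4 and 12.9 CPM in P37Stop, against 1.87, 1.54 and 1.58 CPM in WT batch 2 (log2 fold change 2.59, SE 0.27, edgeR adjusted p = 9.35e-05). *sdz-29* was at 1.66, 1.76 and 2.31 CPM in P37Stop, against 0.140, 0.115 and 0.160 CPM in WT batch 2 (log2 fold change 3.76, SE 0.52, edgeR adjusted p = 0.000491). The 1 downregulated member, *sdz-24*, was far above the others in level, at 402, 365 and 323 CPM in P37Stop, against 516, 572 and 498 CPM in WT batch 2 (log2 fold change -0.54, SE 0.1, edgeR adjusted p = 0.00317), and was not called with total counts or without P37Stop replicate 3 or WT batch 2 replicate 2. Of 17 *btb* genes, which encode BTB-domain proteins, 6 were upregulated and 2 downregulated (6 and 1 with total counts, and 1 downregulated without P37Stop replicate 2 or WT batch 2 replicate 1 or 2), and *btb-8* was at 2.73, 4.97 and 5.79 CPM in P37Stop, against 0.327, 0.161 and 0.214 CPM in WT batch 2 (log2 fold change 4.25, SE 0.45, edgeR adjusted p = 9.12e-05).

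**Figure D2:**
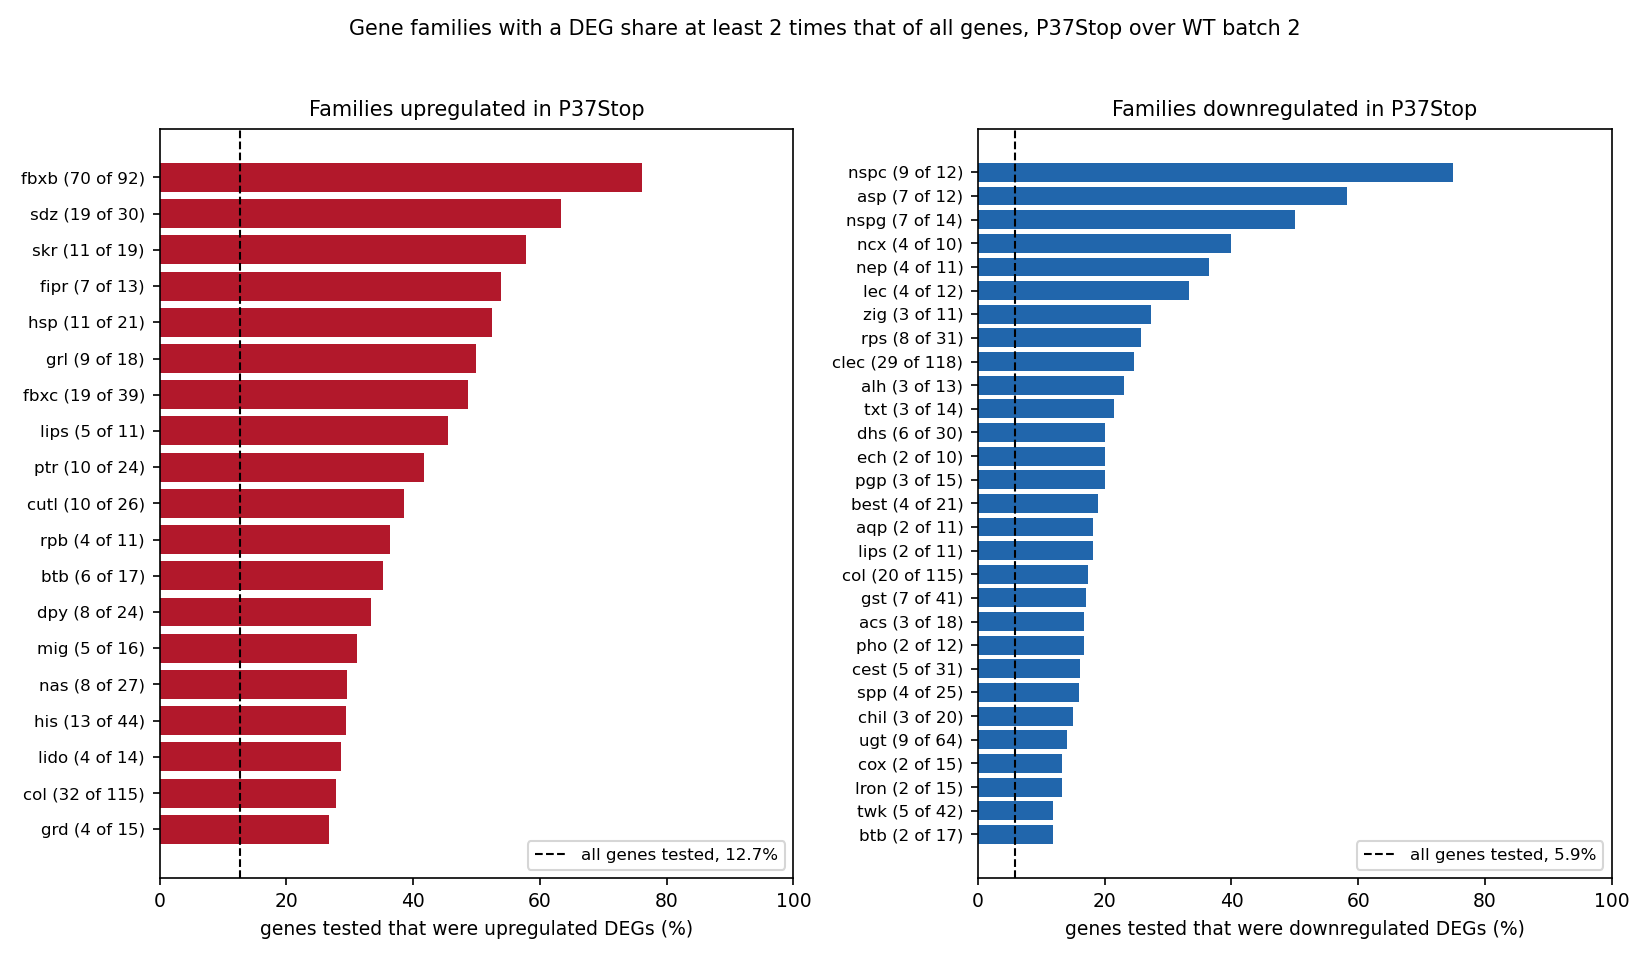
Gene families with at least 10 genes tested whose share of upregulated DEGs (left) or downregulated DEGs (right) in P37Stop relative to WT batch 2 was at least 2 times that of all genes (dashed lines, 12.7% and 5.9%); each bar is the percent of the family's tested genes, with counts beside its name. The fbxb, sdz and skr families lead the upregulated side (70 of 92, 19 of 30 and 11 of 19) and nspc, asp and nspg the downregulated side (9 of 12, 7 of 12 and 7 of 14, or 5, 3 and 2 with total counts).

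Many of these genes were neighbours. There were 30 runs of 4 or more adjacent tested genes that were all upregulated and 2 such runs of downregulated genes. The longest run held 10 genes on chromosome II from 1689698 to 1727116 (WBcel235), namely *fbxc-22*, *fbxc-21*, *fbxc-26*, *fbxb-47*, *sdz-18*, *btb-6*, *fbxb-48*, *btb-8*, *fbxb-11* and *F45C12.17*, with a median log2 fold change of 3.36. A run of 8 genes on chromosome V from 19287009 to 19309687 held *fbxb-60* to *fbxb-63* and their neighbours (median 3.34). *sdz-29*, *sdz-28* and the 5 *C40A11* genes beside them formed a run of 7 on chromosome II from 2123687 to 2150585 (median 2.81). In the first 4000000 bases of chromosome II, 161 of 658 genes tested (24.5%) were upregulated. This held 70 of the 100 *fbxb*, *fbxc*, *sdz* and *btb* genes there, and 91 of the 558 others (16.3%).

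Runs outside the F-box clusters included *skr-13*, *skr-9*, *skr-8*, *skr-12* and a neighbour on chromosome IV (median 2.78), the lipocalin-related *lpr-3*, *lpr-6*, *lpr-5* and *lpr-4* on X (median 2.40), and the antimicrobial peptide genes *nlp-34*, *nlp-31*, *nlp-30* and *nlp-29* on V (median 1.37). Both downregulated runs were of *nspc* genes on X.

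Many single transcripts of the oocyte and early embryo were higher in P37Stop. Of 36 maternal and oocyte genes tested, 23 (63.9%) were upregulated and 0 downregulated, with a median log2 fold change of 1.52. Summed over the list, the level overlapped, at 1363 to 1672 CPM in P37Stop and 1381 to 1433 CPM in WT batch 2. *pos-1*, a zinc finger regulator of maternal mRNA translation, was at 23.9, 59.7 and 32.5 CPM in P37Stop, against 17.4, 5.33 and 3.20 CPM in WT batch 2 (log2 fold change 2.16, SE 0.52, edgeR adjusted p = 0.0105). *mex-5*, a zinc finger protein of embryonic polarity, was at 10.7, 25.7 and 13.9 CPM in P37Stop, against 5.23, 2.82 and 1.82 CPM in WT batch 2 (log2 fold change 2.35, SE 0.39, edgeR adjusted p = 0.00147). *spn-4*, an RNA-binding protein of the early embryo, was at 13.5, 36.3 and 16.07 CPM in P37Stop, against 8.33, 2.43 and 2.59 CPM in WT batch 2 (log2 fold change 2.299, SE 0.48, edgeR adjusted p = 0.00537). In each of these, P37Stop replicate 2 was the highest library and the groups did not overlap.

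These transcripts also differed between libraries of the same group. As the mean over the list of log2 CPM minus each gene's mean over the 6 libraries, the maternal list stood at 0.34, 1.06 and 0.58 in P37Stop and at -0.12, -0.84 and -1.03 in WT batch 2. The range within WT batch 2, 0.91, was the widest of the lists there, and that within P37Stop was 0.72. The count of 23 became 14, 11 and 14 without P37Stop replicate 2, WT batch 2 replicate 2 or WT batch 2 replicate 3. The yolk protein genes *vit-1* and *vit-3* were called but stood at or below 2.03 CPM in every library. Neither was called without P37Stop replicate 2 or WT batch 2 replicate 2 or 3 or with the replicate number as a block, and 1 was called without any other single library. Of 36 sperm genes only 3 reached the count filter.

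Germline genes moved in part. Of 33 genes of primordial germ cells and P granules, 10 (30.3%) were upregulated and 0 downregulated. The largest change was in *nos-2*, a Nanos homolog that is also on the maternal list, at 5.02, 12.96 and 7.15 CPM in P37Stop, against 1.75, 0.918 and 0.320 CPM in WT batch 2 (log2 fold change 3.06, SE 0.52, edgeR adjusted p = 0.00159). *meg-1*, an embryonic P granule gene, was at 3.09, 7.02 and 5.603 CPM in P37Stop, against 1.12, 0.620 and 0.134 CPM in WT batch 2 (log2 fold change 3.05, SE 0.57, edgeR adjusted p = 0.00291). The constitutive P granule gene *pgl-1* had 5.77, 7.95 and 6.22 CPM in P37Stop, against 10.8, 3.47 and 4.59 CPM in WT batch 2, and *glh-1* had 9.61, 9.62 and 10.3 CPM in P37Stop, against 10.9, 7.44 and 10.1 CPM in WT batch 2. Neither passed (log2 fold changes 0.08 and 0.05, edgeR adjusted p = 0.897 and 0.86). The count of 10 became 6 without P37Stop replicate 2, and also without WT batch 2 replicate 2 or 3.

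Zygotic genes of the early embryo had 11 upregulated and 2 downregulated of 27 tested, with a median of 1.78. Summed over the list, however, the level was lower in P37Stop, at 624.7 to 640.3 CPM against 718.1 to 814.5 CPM in WT batch 2. *hnd-1*, a Hand-class transcription factor of embryonic mesoderm, was at 3.95, 4.25 and 2.81 CPM in P37Stop, against 0.257, 0.115 and 0.214 CPM in WT batch 2 (log2 fold change 4.22, SE 0.44, edgeR adjusted p = 8.48e-05). *vet-6*, named as a very early transcript, was at 8.98, 12.58 and 22.2 CPM in P37Stop, against 2.82, 1.698 and 1.496 CPM in WT batch 2 (log2 fold change 2.86, SE 0.35, edgeR adjusted p = 0.00024). Both stood clear of every WT batch 2 library. The endoderm factors *end-1* and *end-3* had at most 1.69 CPM in any library and did not pass (edgeR adjusted p = 0.0577 and 0.087). *nob-1*, a posterior Hox gene, was lower in P37Stop, at 24.8, 27.5 and 31.5 CPM in P37Stop, against 40.4, 52.1 and 43.8 CPM in WT batch 2 (log2 fold change -0.70, SE 0.12, edgeR adjusted p = 0.00203). With total counts 18 genes were upregulated and 0 downregulated, and without WT batch 2 replicate 2 the downregulated ones were 1.

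Cell cycle genes were upregulated in 30 of 77, with 0 downregulated and a median log2 fold change of 0.43. The largest changes were in mitotic regulators. *cyb-3*, a B-type cyclin, was at 60.03, 83.2 and 88.4 CPM in P37Stop, against 24.3, 14.5 and 10.9 CPM in WT batch 2 (log2 fold change 2.22, SE 0.25, edgeR adjusted p = 0.000138). *cyb-1* was at 35.5, 51.96 and 52.98 CPM in P37Stop, against 16.8, 10.9 and 7.48 CPM in WT batch 2 (log2 fold change 1.99, SE 0.25, edgeR adjusted p = 0.000285). *fzy-1*, the Cdc20 activator of the anaphase-promoting complex, was at 19.2, 23.1 and 24.6 CPM in P37Stop, against 7.70, 5.83 and 3.20 CPM in WT batch 2 (log2 fold change 1.99, SE 0.26, edgeR adjusted p = 0.000334). The replicative helicase subunit *mcm-7* was at 28.4, 47.6 and 52.5 CPM in P37Stop, against 17.7, 14.8 and 10.3 CPM in WT batch 2 (log2 fold change 1.58, SE 0.23, edgeR adjusted p = 0.000707). As in the maternal list, WT batch 2 replicate 1 had the highest WT level in all 4. Of 44 histone genes, many of them near-identical copies between which reads can be split, 13 were upregulated and 0 downregulated, but this became 8, 6, 4 and 6 without P37Stop replicate 1 or 2 or WT batch 2 replicate 2 or 3. The 13 included *his-58*, which bqSi640 carries, and its copy *his-66*. *his-72*, an H3.3 variant, was at 437, 412 and 400.4 CPM in P37Stop, against 317, 267 and 288 CPM in WT batch 2 (log2 fold change 0.52, SE 0.093, edgeR adjusted p = 0.00208). Of 11 RNA polymerase II subunit (*rpb*) genes 4 were upregulated, with 10 under total counts, 7 without P37Stop replicate 3 or WT batch 2 replicate 1, and 1 with WT batch 1 as the control.

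**Figure D3:**
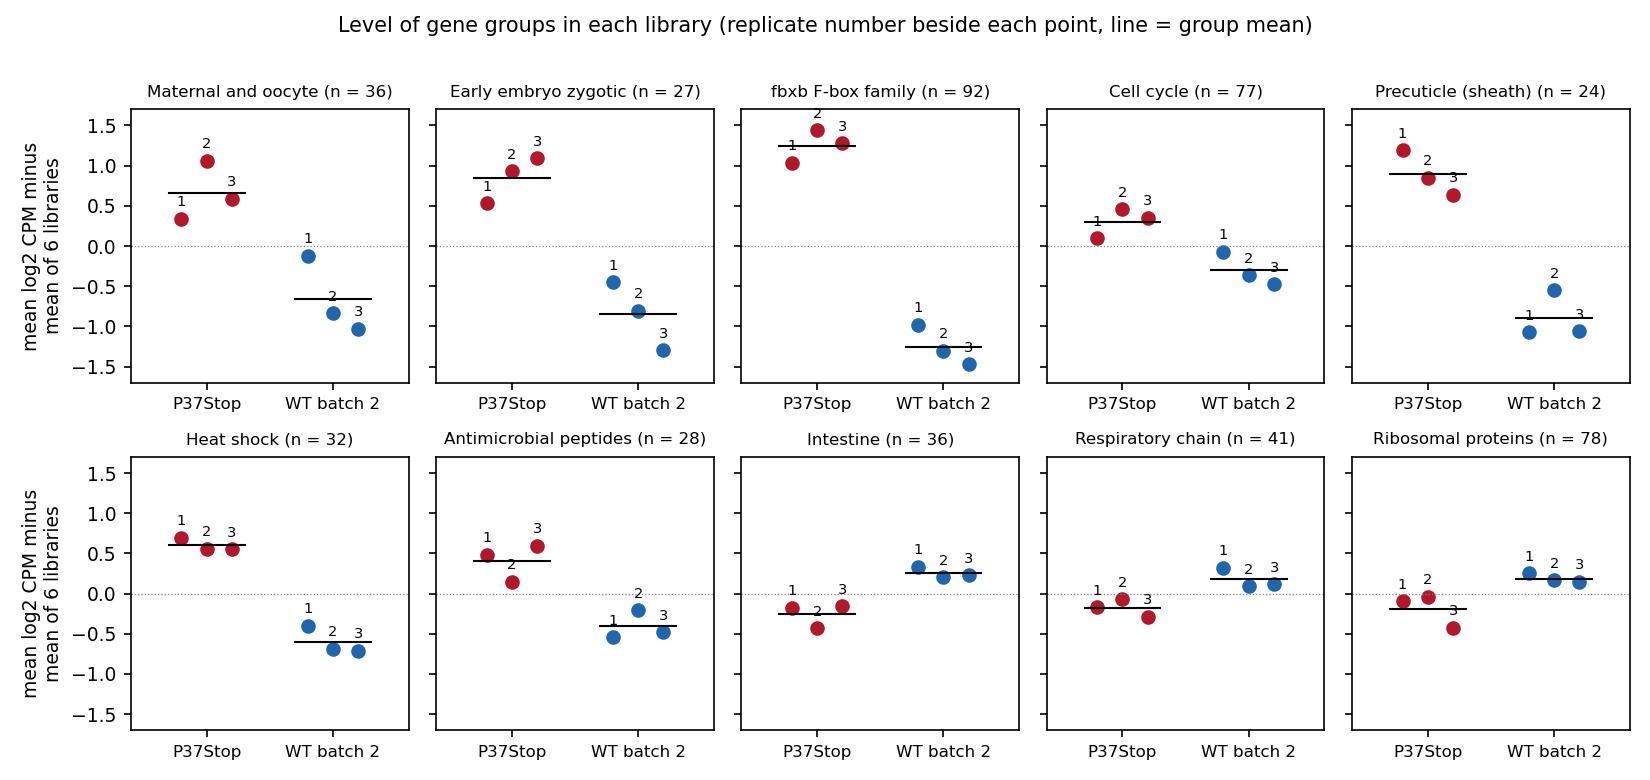
Level of 10 gene groups in each P37Stop (red) and WT batch 2 (blue) library, as the mean over tested members of log2 CPM minus the gene's mean over the 6 libraries; numbers are replicates, lines are group means and n is the number of genes. The P37Stop and WT batch 2 libraries are apart in every panel shown, and the spread within a group is widest for the maternal list, where P37Stop lies at 0.34 to 1.06 and WT batch 2 at -1.03 to -0.12.

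Heat shock genes were upregulated in 15 of 32 tested (46.9%), with 0 downregulated and a median of 0.51. The small heat shock proteins of the *hsp-16* cluster bind unfolded proteins under stress. *hsp-16.2* was at 29.8, 20.8 and 20.4 CPM in P37Stop, against 4.36, 4.45 and 5.05 CPM in WT batch 2 (log2 fold change 2.36, SE 0.18, edgeR adjusted p = 1.79e-05). *hsp-16.41* was at 24.14, 18.5 and 14.2 CPM in P37Stop, against 2.94, 2.62 and 3.04 CPM in WT batch 2 (log2 fold change 2.72, SE 0.21, edgeR adjusted p = 2.04e-05). *hsp-16.48* and *hsp-16.49*, and likewise *hsp-16.1* and *hsp-16.11*, are near-identical copies whose counts were split differently in each library, so that only their sums are given. The *hsp-16.48* and *hsp-16.49* sum was 5788, 3795 and 3771 counts in P37Stop, against 810, 763 and 626 counts in WT batch 2 (log2 fold change 2.50, SE 0.16, edgeR adjusted p = 3.81e-06). That of *hsp-16.1* and *hsp-16.11* was 5922, 3815 and 4248 counts, against 1059, 930 and 784 counts (log2 fold change 2.24, SE 0.16, edgeR adjusted p = 6.01e-06).

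Inducible HSP70 genes moved with them. *F44E5.5*, an inducible HSP70 with a close copy, *F44E5.4*, was at 449.9, 256 and 443 CPM in P37Stop, against 92.4, 53.9 and 79.9 CPM in WT batch 2 (log2 fold change 2.34, SE 0.23, edgeR adjusted p = 5.96e-05). *hsp-70* was at 7.07, 4.95 and 7.39 CPM in P37Stop, against 2.12, 0.689 and 0 CPM in WT batch 2 (log2 fold change 2.77, SE 0.8, edgeR adjusted p = 0.0257). *hsp-4*, the BiP chaperone of the endoplasmic reticulum, was at 126, 106 and 108 CPM in P37Stop, against 39.1, 36.6 and 36.4 CPM in WT batch 2 (log2 fold change 1.599, SE 0.095, edgeR adjusted p = 3.88e-06). The second BiP gene *hsp-3* was at 536, 502 and 464 CPM in P37Stop, against 524, 432 and 477 CPM in WT batch 2 and did not pass (log2 fold change 0.07, edgeR adjusted p = 0.664). The mitochondrial chaperones *hsp-6* and *hsp-60* had log2 fold changes of -0.09 and -0.36 (edgeR adjusted p = 0.512 and 0.071), neither called. Of 26 genes for stress of the endoplasmic reticulum and mitochondria, 5 (19.2%) were upregulated and 0 downregulated, beside 12.7% and 5.9% of all genes. Their median log2 fold change was 0.15. The constitutive *hsp-1* and *hsp-110* rose less, by log2 fold changes of 0.63 and 0.68 (edgeR adjusted p = 0.00138 and 0.000465). *hsf-1*, which encodes the heat shock transcription factor, had 60.2, 58.2 and 62.3 CPM in P37Stop, against 53.5, 53.2 and 60.1 CPM in WT batch 2 and did not pass (edgeR adjusted p = 0.364). The levels of the heat shock list were 0.69, 0.56 and 0.55 in P37Stop and -0.40, -0.69 and -0.71 in WT batch 2. Its upregulated count stayed at 13 to 16 when any 1 library was left out.

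Of the genes for oxidative stress and detoxification, 7 of 37 (18.9%) were upregulated and 4 (10.8%) downregulated, beside 12.7% and 5.9% of all genes. *sod-5*, a copper/zinc superoxide dismutase, was at 15.9, 15.4 and 14.7 CPM in P37Stop, against 0.863, 2.25 and 0.801 CPM in WT batch 2 (log2 fold change 3.54, SE 0.34, edgeR adjusted p = 5.56e-05). The catalase gene *ctl-2* was lower, at 987, 1129 and 1617 CPM in P37Stop, against 2208, 1699 and 2286 CPM in WT batch 2 (log2 fold change -0.73, SE 0.18, edgeR adjusted p = 0.0112). P37Stop replicate 3 came close to the lowest WT batch 2 library for *ctl-2*, and the 4 downregulated genes were 2 with total counts, 2 without P37Stop replicate 2 or WT batch 2 replicate 1 and 0 without WT batch 2 replicate 3. The metal-responsive copies *numr-1* and *numr-2* summed to 2326, 1678 and 2043 counts in P37Stop, against 683, 433 and 445 counts in WT batch 2 (log2 fold change 1.86, SE 0.19, edgeR adjusted p = 3.63e-05).

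Antimicrobial peptide genes, many of which the epidermis induces on wounding or fungal infection, were upregulated in 13 of 28 (46.4%) and downregulated in 3. *cnc-4*, a caenacin, was at 94.4, 86.1 and 76.99 CPM in P37Stop, against 13.3, 17.6 and 17.3 CPM in WT batch 2 (log2 fold change 2.42, SE 0.13, edgeR adjusted p = 2.46e-06). *cnc-11* was at 65.2, 48.4 and 36.2 CPM in P37Stop, against 2.66, 6.91 and 5.10 CPM in WT batch 2 (log2 fold change 3.35, SE 0.3, edgeR adjusted p = 3.98e-05). *nlp-29*, the best known infection-induced peptide gene of the epidermis, was at 158, 124 and 147 CPM in P37Stop, against 66.1, 92.5 and 75.9 CPM in WT batch 2 (log2 fold change 0.87, SE 0.13, edgeR adjusted p = 0.000761). In all of these genes the groups did not overlap. The 3 downregulated genes were *spp-1*, *spp-5* and *fipr-1*, of which the *spp* genes encode saposin-like proteins, and 2 of them were called with total counts. *spp-5* was at 370.4, 350.4 and 308 CPM in P37Stop, against 494, 519 and 508 CPM in WT batch 2 (log2 fold change -0.56, SE 0.094, edgeR adjusted p = 0.00141). Of 13 genes of the *fipr* family (fungus-induced protein related), 7 were upregulated, and *fipr-23* was at 71.3, 65.95 and 71.5 CPM in P37Stop, against 10.2, 16.9 and 10.5 CPM in WT batch 2 (log2 fold change 2.47, SE 0.17, edgeR adjusted p = 1.22e-05). It lies in a run of 6 upregulated genes on chromosome I from 14150628 to 14158078, with *C37A5.6*, *C37A5.5*, *C37A5.3*, *fipr-22* and *fipr-24* (median 2.21).

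Genes of the epidermal surface outside the collagens also moved. Of 24 precuticle sheath genes, part of which the study chose on these samples, 18 were upregulated (median 2.08), and *mlt-11* was at 76.6, 61.8 and 56.8 CPM in P37Stop, against 5.53, 13.8 and 6.28 CPM in WT batch 2 (log2 fold change 2.93, SE 0.29, edgeR adjusted p = 5.96e-05). Of 18 ground-like (*grl*) hedgehog-related genes 9 were upregulated and 0 downregulated. *grl-7* was at 30.98, 34.4 and 17.1 CPM in P37Stop, against 4.50, 3.97 and 5.53 CPM in WT batch 2 (log2 fold change 2.56, SE 0.25, edgeR adjusted p = 5.56e-05). *grl-4* was at 137, 109 and 119.9 CPM in P37Stop, against 61.6, 59.4 and 60.7 CPM in WT batch 2 (log2 fold change 1.01, SE 0.096, edgeR adjusted p = 5.09e-05). Of 24 patched-related (*ptr*) genes, whose proteins resemble the hedgehog receptor, 10 were upregulated and 0 downregulated. *ptr-4* was at 52.4, 42.8 and 33.3 CPM in P37Stop, against 9.08, 12.28 and 10.7 CPM in WT batch 2 (log2 fold change 2.005, SE 0.17, edgeR adjusted p = 3.08e-05). *ptr-22* was at 25.002, 21.1 and 26.9 CPM in P37Stop, against 5.34, 5.302 and 8.07 CPM in WT batch 2 (log2 fold change 1.97, SE 0.19, edgeR adjusted p = 5.09e-05). The count of *ptr* genes stayed at 10 when any 1 library was left out.

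Molting and apical matrix genes were upregulated in 17 of 37 and downregulated in 1. *chs-2*, a chitin synthase of the pharyngeal cuticle found in a run with *abu-11*, was at 20.4, 18.9 and 15.97 CPM in P37Stop, against 5.55, 4.64 and 4.67 CPM in WT batch 2 (log2 fold change 1.90, SE 0.16, edgeR adjusted p = 3.08e-05). *mlt-7*, a peroxidase that cross-links cuticle, was the downregulated one, at 179, 160.2 and 244 CPM in P37Stop, against 364, 379 and 367 CPM in WT batch 2 (log2 fold change -0.93, SE 0.14, edgeR adjusted p = 0.000701). Numbered cuticle collagens (*col*) went both ways, with 32 upregulated and 20 downregulated of 115 (36 and 14 with total counts, 21 upregulated without WT batch 2 replicate 3). Of 26 cuticlin-like genes (*cutl*) 10 were upregulated, and of 27 astacin protease genes (*nas*) 8.

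Few epidermal transcription factors were called. Of 31 epidermal regulators, 5 were upregulated and 2 downregulated, shares near those of all genes. The 2 became 1 with total counts, 0 without WT batch 2 replicate 1, and 1 without P37Stop replicate 1 or 2 or WT batch 2 replicate 3. With WT batch 1 as the control, 7 were upregulated and 11 downregulated. *hbl-1*, a hunchback-like heterochronic factor, was at 145, 108 and 121 CPM in P37Stop, against 52.2, 75.9 and 56.03 CPM in WT batch 2 (log2 fold change 1.02, SE 0.15, edgeR adjusted p = 0.000647). *lin-42*, a Period homolog, was at 7.89, 6.999 and 5.84 CPM in P37Stop, against 3.08, 1.22 and 1.63 CPM in WT batch 2 (log2 fold change 1.80, SE 0.33, edgeR adjusted p = 0.00267). *bed-3*, a zinc finger factor of molting, was at 8.93, 9.18 and 8.42 CPM in P37Stop, against 3.97, 3.44 and 3.58 CPM in WT batch 2 (log2 fold change 1.27, SE 0.19, edgeR adjusted p = 0.000679). *tbx-8* and *tbx-9*, T-box factors of embryonic epidermal and muscle patterning, had at most 3.70 CPM (log2 fold changes 3.63 and 2.73, edgeR adjusted p = 0.00661 and 0.0188). The GATA factor gene *elt-3* and the nuclear receptor gene *nhr-25*, both expressed in the epidermis, had log2 fold changes of -0.18 and -0.26 and did not pass (edgeR adjusted p = 0.246 and 0.108). Of 11 seam cell genes 1 (9.09%), *wrt-2*, was upregulated, at 24.5, 21.7 and 10.8 CPM in P37Stop, against 4.22, 4.43 and 2.80 CPM in WT batch 2 (log2 fold change 2.31, SE 0.29, edgeR adjusted p = 0.000286). The seam cell count was 3 with total counts and 6 with WT batch 1 as the control.

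The pharynx list split by function. Of 27 genes 10 were upregulated and 8 downregulated, and the upregulated ones were all *abu*, *pqn* and *phat* genes. These encode secreted proteins, the *abu* and *pqn* ones of the pharyngeal cuticle and the *phat* ones of the pharyngeal glands. *abu-14* was at 107, 94.8 and 95.8 CPM in P37Stop, against 23.8, 23.4 and 27.8 CPM in WT batch 2 (log2 fold change 1.99, SE 0.1, edgeR adjusted p = 1.8e-06). *phat-2* was at 17.8, 19.3 and 17.2 CPM in P37Stop, against 9.43, 9.14 and 7.67 CPM in WT batch 2 (log2 fold change 1.05, SE 0.14, edgeR adjusted p = 0.000423). The downregulated ones were mostly of pharyngeal muscle. The myosin heavy chain gene *myo-1* was at 457, 426 and 502 CPM in P37Stop, against 833, 759 and 848 CPM in WT batch 2 (log2 fold change -0.82, SE 0.097, edgeR adjusted p = 0.000193). The other such gene of the pharynx, *myo-2*, was at 623, 684 and 695 CPM in P37Stop, against 1365, 1120.0 and 1246 CPM in WT batch 2 (log2 fold change -0.90, SE 0.1, edgeR adjusted p = 0.000157). *tnt-4*, a troponin T, was at 107, 97.9 and 101 CPM in P37Stop, against 171, 163 and 172 CPM in WT batch 2 (log2 fold change -0.73, SE 0.08, edgeR adjusted p = 0.000117). The 8 downregulated genes were 4 with total counts. The split was absent with WT batch 1 as the control, where 18 genes of the list were upregulated and 0 downregulated. There *myo-1*, *myo-2* and *tnt-4* turned to log2 fold changes of 1.47, 1.59 and 1.57.

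Body wall muscle and neurons moved less. Of 35 muscle genes 6 (17.1%) were downregulated and 0 upregulated, with a median of -0.25. This became 0 with total counts and 1 without WT batch 2 replicate 1. *mlc-1*, a myosin light chain, was at 992, 935 and 1009 CPM in P37Stop, against 1678, 1392 and 1451 CPM in WT batch 2 (log2 fold change -0.62, SE 0.1, edgeR adjusted p = 0.00133), while the body wall myosin gene *myo-3* was at 979.6, 800.5 and 997 CPM in P37Stop, against 823, 931 and 834 CPM in WT batch 2 and did not pass (log2 fold change 0.10, edgeR adjusted p = 0.537). Of 47 neuronal genes 4 were downregulated and 0 upregulated (1 and 1 with total counts), a downregulated share of 8.51% beside 5.9% of all genes. The log2 fold change was nonetheless negative in 44 of the 47 (median -0.27), or in 29 with total counts (median -0.05). *unc-25*, glutamate decarboxylase of GABA neurons, was at 135, 139.7 and 141.6 CPM in P37Stop, against 233, 209 and 224 CPM in WT batch 2 (log2 fold change -0.68, SE 0.082, edgeR adjusted p = 0.000208). *bas-1*, the aromatic amino acid decarboxylase, was at 19.1, 16.47 and 23.8 CPM in P37Stop, against 34.9, 35.2 and 37.02 CPM in WT batch 2 (log2 fold change -0.85, SE 0.13, edgeR adjusted p = 0.000993).

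**Figure D4:**
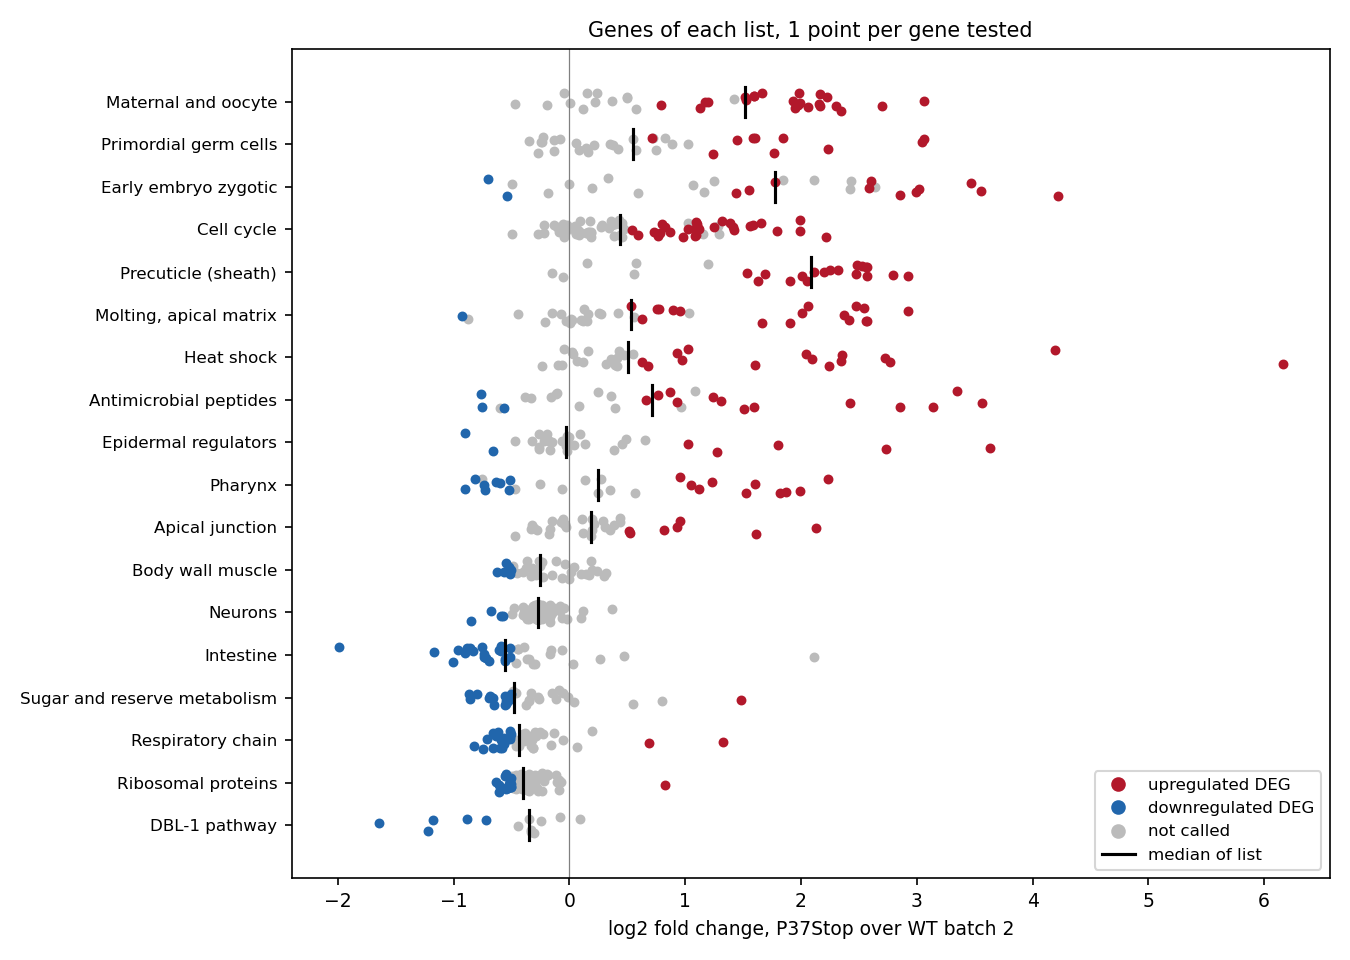
Log2 fold change of P37Stop over WT batch 2 (x axis) for each gene tested in 18 lists, 1 point per gene, red for upregulated DEGs, blue for downregulated DEGs and grey for genes not called; black lines are medians. The maternal, zygotic and sheath lists lie to the right (medians 1.52, 1.78 and 2.08), and the intestine, metabolism, respiratory chain and ribosomal protein lists to the left (medians -0.56, -0.48, -0.44 and -0.40).

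Intestinal genes were the tissue list with the most downregulated members. Of 36 tested, 20 (55.6%) were downregulated and 0 upregulated, with a median of -0.56. With total counts 12 were still downregulated, and 13 with WT batch 1 as the control, against which *cpr-5* and *ges-1* turned to log2 fold changes of 2.78 and 0.11. *cpr-5*, a cathepsin B-like protease, had the largest change, at 19.1, 25.16 and 29.8 CPM in P37Stop, against 124, 79.8 and 90.5 CPM in WT batch 2 (log2 fold change -1.99, SE 0.18, edgeR adjusted p = 4.37e-05). *vha-6*, the intestinal proton pump subunit, was at 387, 341 and 326 CPM in P37Stop, against 761.99, 616 and 736 CPM in WT batch 2 (log2 fold change -1.005, SE 0.11, edgeR adjusted p = 0.000116). *ges-1*, the gut esterase, was at 56.96, 63.4 and 69.2 CPM in P37Stop, against 126, 115 and 109 CPM in WT batch 2 (log2 fold change -0.89, SE 0.097, edgeR adjusted p = 0.000117). *ifb-2*, an intermediate filament of the gut lumen, was at 1026, 842 and 799 CPM in P37Stop, against 1542, 1382 and 1528 CPM in WT batch 2 (log2 fold change -0.74, SE 0.11, edgeR adjusted p = 0.000915). For each of these every P37Stop library was below every WT batch 2 library. *elt-2*, the GATA factor of the intestine, was at 24.05, 20.1 and 22.98 CPM in P37Stop, against 31.9, 30.9 and 29.5 CPM in WT batch 2 and stayed inside the fold limit (log2 fold change -0.46, edgeR adjusted p = 0.00906).

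Families of secreted and digestive proteins fell alongside. Of 12 aspartic protease (*asp*) genes 7 were downregulated, 3 with total counts and 4 without WT batch 2 replicate 1, and *asp-13* was at 76.8, 77.3 and 79.4 CPM in P37Stop, against 218, 144 and 162 CPM in WT batch 2 (log2 fold change -1.17, SE 0.13, edgeR adjusted p = 0.000156). Of 118 C-type lectin (*clec*) genes 29 were downregulated and 11 upregulated, and the downregulated count was 16 with total counts. *clec-1* had the largest decrease of all genes named by size, at 79.01, 92.6 and 71.0 CPM in P37Stop, against 405, 488 and 435 CPM in WT batch 2 (log2 fold change -2.45, SE 0.12, edgeR adjusted p = 1.41e-06). *clec-63* was at 513, 446 and 467 CPM in P37Stop, against 1074, 699.7 and 865 CPM in WT batch 2 (log2 fold change -0.89, SE 0.14, edgeR adjusted p = 0.00111). *clec-266* went the other way, at 181, 115 and 114 CPM in P37Stop, against 25.99, 19.7 and 20.004 CPM in WT batch 2 (log2 fold change 2.64, SE 0.19, edgeR adjusted p = 1.22e-05). Of the 12 nematode-specific peptide genes of group C (*nspc*), 9 were downregulated and 0 upregulated, with 5 under total counts and 0 with WT batch 1 as the control. They made up both downregulated runs, *nspc-16* to *nspc-20* on X from 14523575 to 14530207 and *nspc-12* to *nspc-15* from 12356194 to 12361159. *nspc-14* was at 15.2, 13.3 and 12.4 CPM in P37Stop, against 31.7, 31.97 and 30.7 CPM in WT batch 2 (log2 fold change -1.21, SE 0.11, edgeR adjusted p = 5.09e-05).

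Genes of sugar and reserve metabolism were downregulated in 15 of 32 and upregulated in 1, with a median of -0.48. *gsy-1*, glycogen synthase, was at 145, 145 and 156 CPM in P37Stop, against 290.3, 259 and 264 CPM in WT batch 2 (log2 fold change -0.87, SE 0.085, edgeR adjusted p = 5.93e-05). *pygl-1*, glycogen phosphorylase, was at 399, 484 and 505 CPM in P37Stop, against 814, 699.7 and 725 CPM in WT batch 2 (log2 fold change -0.69, SE 0.11, edgeR adjusted p = 0.00119). *aagr-1*, an acid glucosidase, was at 86.98, 79.3 and 86.6 CPM in P37Stop, against 169.6, 143 and 146 CPM in WT batch 2 (log2 fold change -0.86, SE 0.092, edgeR adjusted p = 0.000105). These 3 enzymes of glycogen turnover were lower in every P37Stop library. The downregulated count was 3 with total counts and 5 with WT batch 1 as the control. *tps-1*, a trehalose synthase, was at 227, 229 and 216 CPM in P37Stop, against 213, 229.9 and 234 CPM in WT batch 2 (log2 fold change -0.01, edgeR adjusted p = 0.946). *gpd-1*, a glyceraldehyde 3-phosphate dehydrogenase with a close copy, *gpd-4*, was the upregulated one, at 16.98, 30.8 and 20.4 CPM in P37Stop, against 13.9, 5.10 and 5.37 CPM in WT batch 2 (log2 fold change 1.48, SE 0.36, edgeR adjusted p = 0.0106), and was not called without WT batch 2 replicate 2 or 3.

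The respiratory chain and ribosomal proteins followed the same direction. Of 41 nuclear respiratory chain genes 18 were downregulated and 2 upregulated (median -0.44), and with total counts 2 and 2. *atp-1*, the alpha subunit of ATP synthase, was at 1553, 1759 and 1632 CPM in P37Stop, against 3366, 2584 and 2816 CPM in WT batch 2 (log2 fold change -0.83, SE 0.12, edgeR adjusted p = 0.00061). Both upregulated genes, *asb-1* and *ucr-2.3*, belong to pairs of paralogs whose other members, *asb-2* and *ucr-2.1*, were downregulated (log2 fold changes 0.68, 1.33, -0.62 and -0.57, edgeR adjusted p = 0.0112, 0.00798, 0.00237 and 0.00183). Of 78 cytosolic ribosomal protein genes 14 were downregulated, although 77 of the 78 had a negative log2 fold change (median -0.40). Single libraries decided that count, which was 2 without P37Stop replicate 3, 3 without WT batch 2 replicate 1, 29 and 24 without P37Stop replicate 2 or 1, 22 without WT batch 2 replicate 2 and 0 with total counts. The 12 protein-coding mitochondrial genes had a median of -0.17, or 0.04 with total counts.

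Lipid genes were mixed, with 4 upregulated and 9 downregulated of 49 (6 and 4 with total counts). These shares were 8.16% and 18.4%, beside 12.7% and 5.9% of all genes. *plin-1*, the perilipin of lipid droplets, was at 402, 466 and 476 CPM in P37Stop, against 192, 152 and 198 CPM in WT batch 2 (log2 fold change 1.31, SE 0.12, edgeR adjusted p = 3.75e-05). *fasn-1*, fatty acid synthase, was at 819.9, 766 and 1040.3 CPM in P37Stop, against 523, 536 and 580.2 CPM in WT batch 2 (log2 fold change 0.68, SE 0.12, edgeR adjusted p = 0.00198). *fat-1*, an omega-3 desaturase, was lower, at 172, 218 and 171 CPM in P37Stop, against 378, 336 and 375 CPM in WT batch 2 (log2 fold change -0.96, SE 0.11, edgeR adjusted p = 0.000163). Insulin signalling and *daf-16*-related genes had 5 upregulated and 7 downregulated of 39. The upregulated share, 12.8%, was that of all genes, and the downregulated share was 17.9%. The insulin-like gene *ins-20* was at 6.23, 8.29 and 8.42 CPM in P37Stop, against 1.14, 1.22 and 1.58 CPM in WT batch 2 (log2 fold change 2.54, SE 0.26, edgeR adjusted p = 6.93e-05). Another, *daf-28*, was at 5.71, 7.25 and 9.75 CPM in P37Stop, against 16.099, 10.9 and 14.5 CPM in WT batch 2 (log2 fold change -0.87, SE 0.22, edgeR adjusted p = 0.0133). The downregulated count was 4 with total counts, 4 without WT batch 2 replicate 1 or 2, and 2 without WT batch 2 replicate 3.

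The BMP-like DBL-1 pathway, which sets body size through the epidermis, was taken up after *sma-6* appeared among the largest decreases. Its 13 genes are therefore a description chosen on these data. *sma-6*, the type I receptor, was at 31.2, 30.5 and 31.7 CPM in P37Stop, against 88.2, 105 and 99.0 CPM in WT batch 2 (log2 fold change -1.64, SE 0.091, edgeR adjusted p = 2.79e-06). *sma-4*, the common Smad, was at 22.6, 22.1 and 24.5 CPM in P37Stop, against 53.7, 53.8 and 54.002 CPM in WT batch 2 (log2 fold change -1.22, SE 0.09, edgeR adjusted p = 1.47e-05). *sma-2*, a receptor-regulated Smad, was at 27.96, 30.1 and 29.6 CPM in P37Stop, against 51.8, 54.7 and 55.7 CPM in WT batch 2 (log2 fold change -0.89, SE 0.088, edgeR adjusted p = 6.06e-05). Within each group these 3 genes varied little, and no library overlapped. Their downstream gene *lon-1*, a secreted negative regulator of body size, was at 4.86, 3.24 and 4.72 CPM in P37Stop, against 10.9, 8.54 and 9.56 CPM in WT batch 2 (log2 fold change -1.18, SE 0.21, edgeR adjusted p = 0.00236), and the coreceptor gene *drag-1* at 4.23, 3.43 and 5.27 CPM in P37Stop, against 6.11, 6.73 and 8.41 CPM in WT batch 2 (log2 fold change -0.72, SE 0.23, edgeR adjusted p = 0.0403). The ligand gene *dbl-1* and the type II receptor gene *daf-4* were inside the fold limit (log2 fold changes -0.45 and -0.31, edgeR adjusted p = 0.042 and 0.0202). The other receptor-regulated Smad gene, *sma-3*, was at 20.9, 19.6 and 21.1 CPM in P37Stop, against 24.05, 24.5 and 24.6 CPM in WT batch 2 and did not pass (log2 fold change -0.25, edgeR adjusted p = 0.0988). The downregulated count was 5 of 13, 4 with total counts and 6 with WT batch 1 as the control.

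Junctions and matrix below the epidermis had a few strong members. Of 32 apical junction and cadherin genes 7 were upregulated and 0 downregulated. *inx-3*, a gap junction innexin of the embryo, was at 58.9, 51.8 and 44.3 CPM in P37Stop, against 17.1, 17.1 and 16.478 CPM in WT batch 2 (log2 fold change 1.62, SE 0.12, edgeR adjusted p = 1.3e-05). *cdh-5*, a cadherin, was at 21.002, 14.4 and 12.97 CPM in P37Stop, against 3.85, 3.26 and 3.98 CPM in WT batch 2 (log2 fold change 2.13, SE 0.21, edgeR adjusted p = 6.25e-05). Among 15 hemidesmosome genes *ifa-3*, an intermediate filament needed for embryonic elongation, was at 23.8, 16.7 and 10.3 CPM in P37Stop, against 2.29, 3.81 and 1.31 CPM in WT batch 2 (log2 fold change 2.77, SE 0.38, edgeR adjusted p = 0.000453). Of 32 basement membrane genes 3 were upregulated and 2 downregulated (3 and 1 with total counts). These shares, 9.38% and 6.25%, were below and near those of all genes, 12.7% and 5.9%. *lam-3*, one of the 2 laminin alpha chains, was at 62.98, 39.5 and 45.8 CPM in P37Stop, against 3.62, 6.95 and 6.30 CPM in WT batch 2 (log2 fold change 3.14, SE 0.24, edgeR adjusted p = 1.81e-05), while the other, *epi-1*, was at 173, 172 and 215 CPM in P37Stop, against 197, 213 and 181 CPM in WT batch 2 (log2 fold change -0.08, edgeR adjusted p = 0.637). *adt-2*, an ADAMTS protease, was lower in every P37Stop library, at 79.96, 99.0 and 108 CPM in P37Stop, against 190.3, 193 and 196 CPM in WT batch 2 (log2 fold change -1.02, SE 0.11, edgeR adjusted p = 9.9e-05). Of 30 Wnt and Hox genes 3 went each way (5 up and 1 down with total counts), and *lin-44*, a Wnt ligand of the tail, was at 17.02, 21.2 and 15.3 CPM in P37Stop, against 33.1, 33.3 and 28.9 CPM in WT batch 2 (log2 fold change -0.83, SE 0.13, edgeR adjusted p = 0.00119).

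Beside the genes above, the increases among DEGs of 10 CPM or more included *str-87*, a chemoreceptor-family gene, at 23.3, 19.9 and 25.7 CPM in P37Stop, against 0.607, 1.45 and 0.347 CPM in WT batch 2 (log2 fold change 4.82, SE 0.37, edgeR adjusted p = 1.81e-05). *catp-2*, a cation-transporting ATPase, was at 12.12, 11.33 and 9.30 CPM in P37Stop, against 0.397, 0.252 and 0.694 CPM in WT batch 2 (log2 fold change 4.62, SE 0.33, edgeR adjusted p = 1.33e-05). *ces-2*, a bZIP transcription factor known from cell death specification, was at 34.9, 17.6 and 17.7 CPM in P37Stop, against 2.87, 2.57 and 1.95 CPM in WT batch 2 (log2 fold change 3.24, SE 0.29, edgeR adjusted p = 3.68e-05). In these 3 genes the lowest P37Stop library was several times the highest WT batch 2 library. *C37A5.5*, *R09E10.13*, *C37A5.6* and *F08H9.4* had log2 fold changes of 4.12, 3.598, 3.59 and 3.55. The smallest adjusted p among increases, 7.31e-07 in edgeR, was shared by *C35E7.5* and the long noncoding *T09F5.12*. *C35E7.5* was at 64.6, 61.9 and 64.3 CPM in P37Stop, against 9.73, 6.95 and 8.95 CPM in WT batch 2. *T09F5.12* was at 109.8, 109.6 and 102 CPM in P37Stop, against 27.9, 29.7 and 28.7 CPM in WT batch 2. Libraries within a group differed little in both genes. *F54D5.5* and the chitinase gene *cht-1* had log2 fold changes of 2.53 and 1.72.

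Among the decreases, *F42A8.1* was at 40.1, 50.9 and 68.8 CPM in P37Stop, against 273, 312 and 279 CPM in WT batch 2 (log2 fold change -2.44, SE 0.17, edgeR adjusted p = 1.2e-05). *F45D3.3* was at 46.3, 42.2 and 44.8 CPM in P37Stop, against 176, 207 and 199.6 CPM in WT batch 2 (log2 fold change -2.13, SE 0.092, edgeR adjusted p = 7.31e-07). *F45D11.14* was at 409, 449.8 and 299.9 CPM in P37Stop, against 1539, 1780.4 and 1603 CPM in WT batch 2 (log2 fold change -2.09, SE 0.15, edgeR adjusted p = 1.22e-05). All 3 were several times lower in every P37Stop library. *oat-1*, an organic anion transporter, was at 2.205, 3.21 and 5.67 CPM in P37Stop, against 19.04, 18.96 and 19.5 CPM in WT batch 2. *chil-18*, a chitinase-like gene, was at 1.82, 4.12 and 2.72 CPM in P37Stop, against 15.1, 13.01 and 13.1 CPM in WT batch 2. *ugt-9*, a UDP-glucuronosyltransferase, was at 3.57, 6.58 and 5.25 CPM in P37Stop, against 15.9, 13.8 and 20.8 CPM in WT batch 2. These 3 genes were also lower in every P37Stop library (log2 fold changes -2.37, -2.25 and -1.71). *hrg-7*, a secreted protein of heme signalling, was at 22.6, 15.7 and 35.2 CPM in P37Stop, against 77.2, 47.6 and 109.7 CPM in WT batch 2 (log2 fold change -1.67, SE 0.31, edgeR adjusted p = 0.0025), with a wide range within both groups. *F37B12.1* and *T02B11.3* had log2 fold changes of -1.75 and -1.09. *F45D11.1* is a pseudogene with near-identical neighbours whose counts were split unevenly, so that its log2 fold change of -1.79 is uncertain.

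The 2 largest increases by the fit were in gene IDs that share their Ensembl name with another copy. *Y19D10A.5* had 966, 423 and 1058 counts in P37Stop, against 0 in each WT batch 2 library, while its copy *C01B4.8* had 0, 472 and 74 counts in P37Stop, against 716, 559 and 514 counts in WT batch 2. Summed over both copies, the counts were 966, 895 and 1132 in P37Stop, against 716, 559 and 514 in WT batch 2 (log2 fold change 0.65, SE 0.16, edgeR adjusted p = 0.0098). *clec-13* likewise had counts in the P37Stop libraries only. Its sum with *clec-15* was 1575, 1166 and 1038 counts in P37Stop, against 971, 680 and 838 counts in WT batch 2, and did not pass (log2 fold change 0.49, SE 0.18, edgeR adjusted p = 0.0589). The single-copy folds of these genes are therefore not given.

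**Figure D5:**
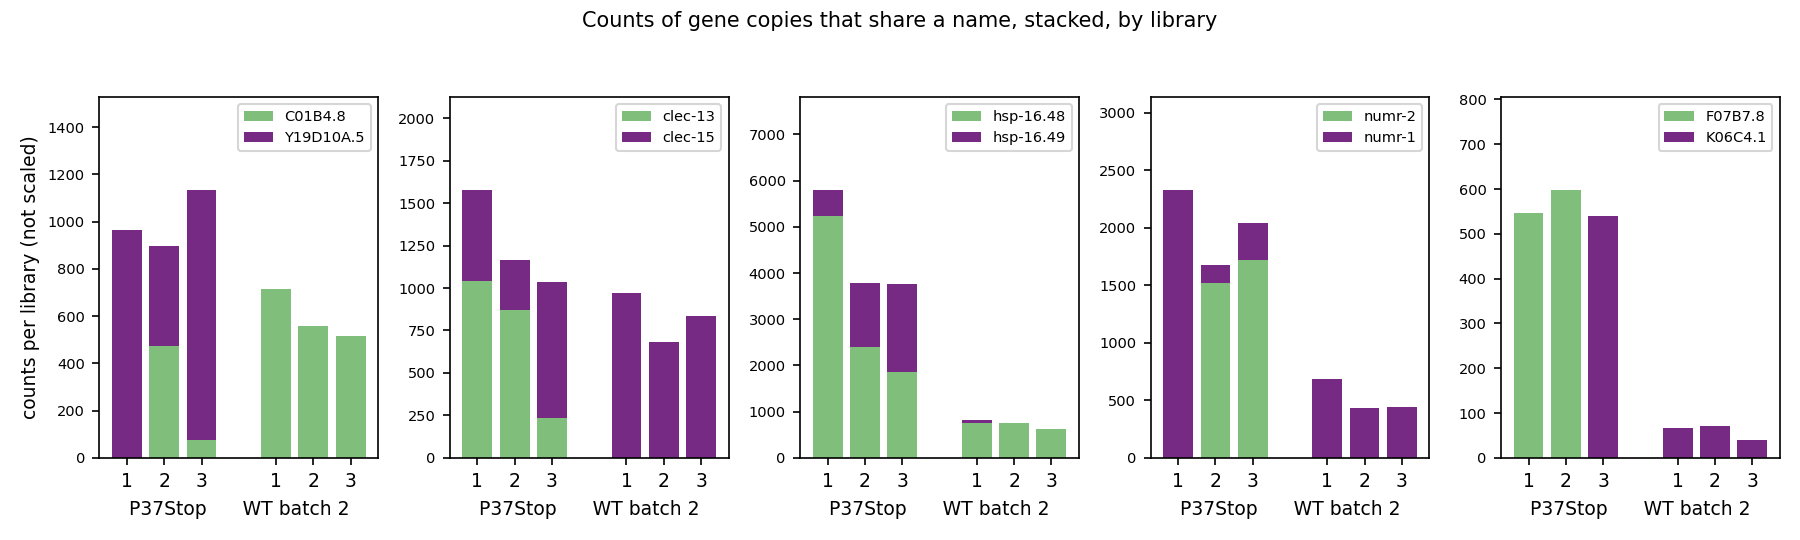
Counts per library, not scaled for depth, of 5 pairs of gene copies that share a name, stacked by copy, with the P37Stop libraries at the left of each panel and the WT batch 2 libraries at the right. The colour that fills a bar changes between libraries of 1 group, and the full height of a bar is the sum of both copies, as for C01B4.8 and Y19D10A.5 (966, 895 and 1132 counts in P37Stop, 716, 559 and 514 in WT batch 2).

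Not every such pair lost its change. *F07B7.8* had 547, 597 and 0 counts in P37Stop, against 0 in each WT batch 2 library, and its copy *K06C4.1* had 0, 0 and 541 counts in P37Stop, against 66, 72 and 40 counts in WT batch 2. Their sums, 547, 597 and 541 counts in P37Stop, against 66, 72 and 40 counts in WT batch 2, differed by a log2 fold change of 3.15 (SE 0.22, edgeR adjusted p = 4.81e-06). The reporter gene *his-58* and its copy *his-66* summed to 1493, 1531 and 957 counts in P37Stop, against 394, 390 and 251 counts in WT batch 2 (log2 fold change 1.84, SE 0.18, edgeR adjusted p = 2.96e-05). Of the 75 tested IDs that share a name, 14 were DEGs, a share near the 18.6% of all genes tested. Over the whole table, summing the copies changed the counts to 2031 upregulated and 940 downregulated DEGs of 15765 tested.

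Measures of the spread within groups did not all give the same order. Euclidean distances between libraries were slightly smaller within P37Stop, as given above, while the other measures were larger there. The biological coefficient of variation was 0.232 within P37Stop and 0.190 within WT batch 2. Among genes with at least 10 CPM on average, the median range of log2 CPM over the 3 libraries was 0.262 in P37Stop and 0.201 in WT batch 2, and 162 and 32 genes had a range over 1. No single P37Stop library accounted for these genes, since replicates 1, 2 and 3 were the highest in 61, 47 and 54 of them and the lowest in 51, 54 and 57.

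Several of the widest ranges in P37Stop belonged to copies that share a name, such as *B0564.9*, *numr-1* and *his-66*. *clec-91* was at 7.64, 23.5 and 32.2 CPM in P37Stop, against 10.99, 3.603 and 3.04 CPM in WT batch 2. *pes-2.1*, which shares its name with a copy, was at 21.1, 55.1 and 83.1 CPM in P37Stop, against 14.7, 7.57 and 6.06 CPM in WT batch 2. *cey-2*, a maternal Y-box protein gene, was at 12.296, 34.8 and 9.82 CPM in P37Stop, against 8.63, 3.35 and 2.40 CPM in WT batch 2. All 3 were nonetheless upregulated. *hmit-1.2*, a myo-inositol transporter gene, ranged over 9.14, 3.38 and 21.1 CPM in P37Stop, against 14.5, 13.6 and 11.5 CPM in WT batch 2 with no call (edgeR adjusted p = 0.745). Other genes ranged more widely in WT batch 2. The lectin gene *clec-87* was at 49.6, 101 and 103 CPM in P37Stop, against 46.9, 19.1 and 8.79 CPM in WT batch 2. *clec-88* was at 24.6, 55.6 and 45.8 CPM in P37Stop, against 21.9, 6.24 and 3.04 CPM in WT batch 2. Both were highest in WT batch 2 replicate 1. *sip-1*, a small heat shock protein of oocytes and embryos, was at 55.3, 142.4 and 66.3 CPM in P37Stop, against 34.04, 15.6 and 11.9 CPM in WT batch 2. WT batch 2 replicate 1 had the highest WT level in the 6 genes whose levels are given here other than *hmit-1.2*. P37Stop replicate 1 had the lowest P37Stop level in all of these but *cey-2*. These 6 genes were picked from the widest ranges, and others there went otherwise. *lips-15* and *rrn-3.56* were highest in WT batch 2 replicate 3. Among the 32 genes with a range over 1 in WT batch 2, replicates 1, 2 and 3 were the highest in 16, 9 and 7. Whether the libraries differed in the stages of the animals was not tested.

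Lists also differed in which library led. Sheath genes were highest in P37Stop replicate 1 (1.19, beside 0.85 and 0.64) and highest in WT batch 2 replicate 2 (-0.55, beside -1.07 and -1.06). Early zygotic genes had the reverse order in P37Stop (0.54, 0.93 and 1.09). Ribosomal protein genes were lowest in P37Stop replicate 3 (-0.43, beside -0.10 and -0.04), as were the mitochondrially encoded genes (-0.55, beside 0.06 and 0.20). Wnt and Hox genes had the same level in all P37Stop libraries to within 0.018.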

How the data were processed

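Total polyadenylated RNA libraries of whole worms were sequenced by the authors, who named fastp, STAR, Salmon, picard and htseq and the build ce11. The authors deposited expected counts per gene, of which 3.70% were not whole and were rounded. Which route made them is not stated in the sources used here, so that the handling of multi-mapping reads is unknown. The last line without a gene ID was left out. Symbols were taken from the Ensembl WBcel235 annotation, which matched 46857 of 46911 IDs, and from RefSeq for IDs that share a name.

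Genes were filtered with filterByExpr (minimum count 10), which also keeps a gene with enough counts in only P37Stop or only WT batch 2. They were scaled by TMM and tested with edgeR 4.0.16 in R 4.3.3 on the 6 libraries. Benjamini-Hochberg adjustment was made over all genes tested. Libraries came from separate plates, so that p-values measure the spread between plates grown together. The test was also run on counts simulated from its own fit, with as many increases as decreases. Such counts cannot test the choice of scaling. A family was described where its share of DEGs was at least 2 times that of all genes, with at least 10 tested, and a run held at least 4 neighbours.

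Members and lists were chosen with earlier results of these data known. Genes named by size came from DEGs with at least 10 CPM and no overlap. They were, in each direction, the 12 that changed most and the 6 with the smallest adjusted p. In lists and families the members with the largest or smallest change or the highest level were named, and other members were chosen for a known role after their values were seen. For the spread, genes came from the 10 with the widest range in each group. Alternatives were DESeq2 1.42.0, limma 3.58.1 (voom), other scalings and filters, all 15 libraries, WT batch 1 as the control, a replicate block, leaving out each library and, chosen after seeing the data, counts summed over IDs that share a name. Promoter motifs were not analysed here.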

Additional observations from a re-analysis of the deposited data

How the results depend on the processing

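The TMM counts of 2000 upregulated and 931 downregulated DEGs became 3155 and 362 with total counts and 3557 and 2300 with WT batch 1 as the control, a comparison that mixes genotype with experiment. Leaving out 1 library at a time gave 1499 to 1858 upregulated and 737 to 1022 downregulated DEGs. DESeq2 called 2187 and 1052, of which 1956 and 928 were DEGs of the same direction in edgeR. The filter above 1 TPM in all 6 libraries gave 1483 and 792 and left no *fbxb* gene called, because rare transcripts were not tested. The fit of all 15 libraries called 2865 and 1297. The log2 fold change of *eff-1* was inside the fold limit with upper quartile scaling (-0.4994), total counts (-0.3068) and the 1 TPM filter (-0.4803), and ranged between -0.6066 and -0.4607 when 1 library was left out. Replicate numbers did not pair the libraries, since deviations of same-numbered libraries correlated at -0.06, -0.05 and -0.04. With the number as a replicate block, 1829 genes were upregulated and 908 downregulated, and *eff-1* had a log2 fold change of -0.52. Of 123 counts of lists and families, 61 moved by more than 1.5 times with total counts, 73 with WT batch 1 as the control, 33 with the 1 TPM filter, 15 with all 15 libraries in the fit and 15 to 30 when 1 library was left out, and the causes were not tested. With the 1 TPM filter the upregulated count of the maternal list was 7 in place of 23, and that of the germ cell list 2 in place of 10. Genes under about 1 CPM rest on few counts, and 51 tested genes were at 0 in a library and at 50 or more counts in another of the same group. Among the genes named, 26 turned their direction, all with WT batch 1 as the control and with no other alternative run. Their log2 fold changes over WT batch 1 were 0.22 for *T02B11.3*, 0.015 for *asp-13*, 0.33 for *bas-1*, 1.11 for *clec-63*, 2.78 for *cpr-5*, 3.23 for *daf-28*, 0.13 for *drag-1*, 0.23 for *fat-1*, 1.81 for *fipr-1*, 0.11 for *ges-1*, 1.83 for *hmit-1.2*, 0.80 for *hrg-7*, 1.37 for *hsp-60*, 1.47 for *myo-1*, 1.59 for *myo-2*, 1.87 for *nspc-12*, 1.02 for *nspc-14*, 0.55 for *nspc-15*, 1.06 for *nspc-16*, 0.63 for *nspc-20*, 1.39 for *oat-1*, 0.023 for *pygl-1*, 1.57 for *tnt-4* and 1.27 for *ugt-9*, and -0.999 for *myo-3* and -0.30 for *vit-3*.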
